A study of Mus musculus with 2 samples.

Results

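The GIMAP genes (GTPases of immunity-associated proteins) were followed on 2 Affymetrix mouse arrays of CD4+ T cells activated by antigen-presenting cells with or without an OX40 ligand transgene. The 8 genes Gimap1, Gimap3, Gimap4, Gimap5, Gimap6, Gimap7, Gimap8 and Gimap9 were taken by name from the platform annotation, out of 17097 genes with a value. All 8 had a value, from 9 probe sets, because Gimap4 had 2 probe sets and the other genes 1 each.

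Per the labels, the T cells came from C57/Bl6 mice 6 weeks of age that carry the Foxp3-eGFP reporter, and were naive and Foxp3-negative when sorted. Soluble anti-CD3, an antibody that stimulates through the receptor for antigen, was present during a culture of 48 hours, after which living CD4+ cells were sorted once more. In one culture the antigen-presenting cells (APC) came from OX40L-Tg mice, which carry a transgene for OX40 ligand, the partner of the T cell costimulatory receptor OX40. In the other they came from wild type (Wt) mice. Both kinds of APC were splenocytes depleted of CD3+ cells and treated with mitomycin C at 50 ug/ml, so both groups share the reporter allele, the antibody and the drug. The promoter that drives the transgene, the number of mice and any pooling are not given in the sources used here. There is 1 array per condition, so no difference can be tested and the spread between cultures is unknown. The labels' extraction text speaks of adipose tissue. On the arrays 0 of 4 adipocyte markers with a value reached the floor set out below, with Adipoq at 8.31 units in the OX40L-Tg APC culture and 8.89 units in the Wt APC culture.

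GIMAP proteins are GTPases found mainly in lymphocytes and anchored to, or recruited to, intracellular membranes. They share a GTP-binding domain of the AIG1 type, which is related to septins and to plant chloroplast import GTPases. They are best known for keeping T and B cells alive: loss of Gimap5 or Gimap1 in mice depletes mature T cells. The family lies in one gene cluster, and its transcripts are characteristic of resting lymphocytes.

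With OX40L-Tg APC, 7 of the 8 GIMAP transcripts read lower than with Wt APC and 1, Gimap5, read higher. All differences were modest. The 7 lower genes ranged from -0.47 to -0.16 on the log2 scale, Gimap5 stood at 0.31, and the median of the 8 was -0.25, which is 1.19-fold lower. The median over the 10541 genes above the floor was 0.02. Of those genes 46.0% read lower at any size, against 7 of 8 GIMAP genes, and 54.0% read higher, against 1 of 8. None of the 8 differed by 1.5-fold in either direction, a size at which 3.36% of all genes were lower and 3.85% higher. At 2-fold, with 0 of the 8 past it, the shares were 1.17% lower and 1.56% higher.

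Intensities are in the array's linear units after the authors' normalization. A gene was above the floor if it reached the array's median of 14.7 units on at least 1 array. All 9 GIMAP probe sets also exceeded, on both arrays, the 95th percentile of 64 genes typical of other organs, which was 24.4 units on the OX40L-Tg APC array and 23.9 units on the Wt APC array. Levels of different genes are not read as amounts of transcript, since each probe set binds with its own efficiency. Sums of intensity and matches by level use them as array readings only. Such sums weigh the brightest probe sets most. In a bulk sample, fewer cells of a type and less RNA per cell cannot be told apart. The arrays correlated with r = 0.993 over 45141 probe sets.

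The genes lie on mouse chromosome 6, within 123666 bases at chr6:48647186-48770851 (GRCm38.p6, RefSeq). Their order by position is Gimap8, Gimap9, Gimap4, Gimap6, Gimap7, Gimap1, Gimap5 and Gimap3. Of the 8, 6 are on the plus strand, while Gimap6 and Gimap3 are on the minus strand. The RefSeq promoter windows of 300 bases, which run from 250 bases before to 50 bases after a transcription start, were available for all 8 genes, with 9 windows because Gimap8 has 2 starts. Shown here, 5′ to 3′ along each gene, are the windows of the 3 genes with the largest negative difference and of Gimap5, the gene that read higher. Capitals mark the letters TTCNNNGAA, the form of a gamma-activated site, to which STAT factors are known to bind. The windows lie at chr6:48770802-48771101 on the minus strand for Gimap3, chr6:48718371-48718670 on the plus strand for Gimap7, chr6:48708195-48708494 on the minus strand for Gimap6 and chr6:48745947-48746246 on the plus strand for Gimap5.
Gimap3: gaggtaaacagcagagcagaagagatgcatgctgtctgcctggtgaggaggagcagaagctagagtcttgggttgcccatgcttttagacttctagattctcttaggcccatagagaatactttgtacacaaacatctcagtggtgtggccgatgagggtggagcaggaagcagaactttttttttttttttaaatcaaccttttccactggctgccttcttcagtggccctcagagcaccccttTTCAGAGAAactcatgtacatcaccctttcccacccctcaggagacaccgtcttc
Gimap7: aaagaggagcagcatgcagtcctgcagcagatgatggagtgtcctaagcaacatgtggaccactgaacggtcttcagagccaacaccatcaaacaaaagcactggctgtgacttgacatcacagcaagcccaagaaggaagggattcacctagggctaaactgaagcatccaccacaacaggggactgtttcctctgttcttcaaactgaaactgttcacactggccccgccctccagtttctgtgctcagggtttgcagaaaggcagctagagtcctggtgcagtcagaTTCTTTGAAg
Gimap6: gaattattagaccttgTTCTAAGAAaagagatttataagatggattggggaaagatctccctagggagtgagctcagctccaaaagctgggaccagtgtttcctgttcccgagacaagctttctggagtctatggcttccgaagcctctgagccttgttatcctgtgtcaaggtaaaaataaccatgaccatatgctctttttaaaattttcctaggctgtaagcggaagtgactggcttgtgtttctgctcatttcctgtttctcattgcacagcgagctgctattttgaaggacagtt
Gimap5: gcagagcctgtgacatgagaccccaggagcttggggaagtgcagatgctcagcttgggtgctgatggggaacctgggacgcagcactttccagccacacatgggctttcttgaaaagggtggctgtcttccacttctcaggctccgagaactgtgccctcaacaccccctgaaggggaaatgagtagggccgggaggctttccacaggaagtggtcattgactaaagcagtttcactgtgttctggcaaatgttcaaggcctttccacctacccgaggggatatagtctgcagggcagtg

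The capitals begin 5 bases before the start in Gimap3, 234 bases before it in Gimap6 and at base 41 of the transcript in Gimap7, and the Gimap5 window has none. One of the 2 Gimap8 windows also holds these letters, 47 bases before its start, so 4 of the 9 windows, each of a different gene, have a match, against 8.30% of the 32851 mouse windows. Gimap9, Gimap4 and Gimap1, which also read lower, have none. The 4 windows with a match held 43.3% to 50.7% G and C, below the median of 52.7% over all windows. The 8.30% is thus not a share over windows of like composition. This motif was picked for display after the differences were known, from a wider search on both strands of which 11 motifs are given here. No marked match overlaps a match to another of the 11 motifs. A match is a string of letters, not a shown binding site.

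Other motifs were spread differently over the family. The ETS letters GGAAGT occurred in Gimap9, Gimap6, Gimap1 and Gimap5, against 23.8% of all windows. RUNX letters TGTGGT occurred in Gimap4, Gimap7 and Gimap1, against 16.8%. The KLF letters CACCC occurred in 5 of 8 genes and in 57.5% of all windows. Forkhead letters TAAACA stood in Gimap4 and Gimap3, against 13.4%, and the Notch factor RBPJ's letters GTGGGAA in Gimap3 alone, against 6.38%. The letters CCAAT occurred in 3 genes, against 37.4%, GGGCGG in 2, against 35.7%, and TATAAA in Gimap6 alone, against 13.6%. The GATA letters AGATAA and the AP-1 letters TGANTCA were in 0 of the 8 genes' windows, against 11.2% and 7.81% of all windows.

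Gimap3 and Gimap5 are neighbouring paralogs that carry membrane anchors, and both have been linked to lymphocyte survival. Gimap3 (chr6:48764464-48770851) read 933 units with OX40L-Tg APC and 1293 units with Wt APC, a log2 difference of -0.47 or 1.39-fold lower. Of all genes above the floor 5.08% had a more negative difference, so Gimap3 lay furthest down in the family without reaching 1.5-fold. Gimap5 (chr6:48746197-48754200), whose loss causes lymphopenia in mice and in the BB rat, read 164 units with OX40L-Tg APC and 132 units with Wt APC. That is a log2 difference of 0.31, or 1.24-fold higher, with 11.1% of genes more positive. The pair of neighbours thus read in opposite directions on these arrays. RefSeq lists Gimap5 among the older names of Gimap3, so both were identified by their Entrez numbers, 83408 for Gimap3 and 317757 for Gimap5.

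Gimap1 (chr6:48739047-48743795), which mature T and B cells need for their maintenance in mice, read 582 units with OX40L-Tg APC and 684 units with Wt APC. Its log2 difference was -0.23, with 14.3% of genes more negative. Gimap4 (chr6:48684578-48692062), which has been linked to the pace of T cell death, read 4853 units with OX40L-Tg APC and 5607 units with Wt APC in the probe set with the higher mean. That probe set carries the suffix for shared transcripts, and its difference was -0.21. The other Gimap4 probe set read 3137 units with OX40L-Tg APC and 3873 units with Wt APC, a difference of -0.30. Both sets were lower, and they lay 0.10 apart. For comparison, 1392 genes had 2 well-measured probe sets, above the 75th percentile of both arrays. Between the differences of a gene's 2 sets, the median gap was 0.07 and the 90th percentile 0.21. This gap compares 2 differences taken from the same 2 arrays, so it holds no spread between cultures. The Gimap3, Gimap6, Gimap7, Gimap1, Gimap8 and Gimap5 differences were larger in size than that 90th percentile. Those of Gimap4 by its higher set and of Gimap9 were not. This does not say which differences would recur in other cultures.

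**Figure D1:**
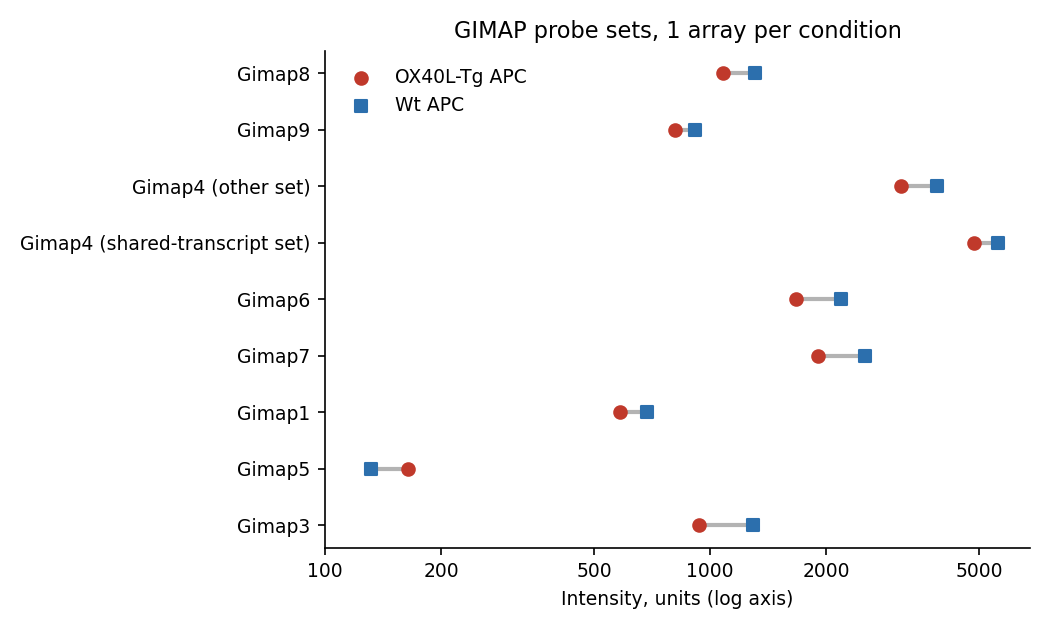
Intensity of each GIMAP probe set in array units on a log axis, with 1 point for the OX40L-Tg APC array (circles) and 1 for the Wt APC array (squares) and a line joining them. The OX40L-Tg APC circle lies left of the Wt APC square for every probe set but that of Gimap5, where it reads 164 units against 132 units with Wt APC.

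Gimap6 (chr6:48701583-48708244), which binds the autophagy protein GABARAPL2, read 1675 units with OX40L-Tg APC and 2191 units with Wt APC. The log2 difference was -0.39, a 1.31-fold lower value. Gimap7 (chr6:48718621-48724636), whose human form can stimulate GTP hydrolysis by a related GIMAP, read 1905 units with OX40L-Tg APC and 2525 units with Wt APC, a difference of -0.41 or 1.33-fold lower. These neighbours on opposite strands, with 10376 bases between them, had close values, with 7.06% and 6.59% of all genes more negative than Gimap6 and Gimap7. Gimap8 (chr6:48647186-48660875), which holds several GTP-binding domains in one protein, read 1079 units with OX40L-Tg APC and 1307 units with Wt APC, a difference of -0.28. Gimap9 (chr6:48676121-48679116) read 812 units with OX40L-Tg APC and 911 units with Wt APC, at -0.16 the smallest difference of the 8.

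Each gene was also set beside the genes within 0.5 of its own mean log2 level. This window was chosen after the values were seen. For Gimap3, 2.85% of 984 genes of like level had a more negative difference, and for Gimap7 it was 3.18% of 535 genes. Gimap6 had 3.34% of 629 genes below it and Gimap4 3.09% of 162 genes. The shares were 7.02% for Gimap8, 10.1% for Gimap1 and 14.3% for Gimap9. For Gimap5, 12.5% of 1497 genes of like level had a more positive difference. Seen this way Gimap4, with a difference of -0.21, sat as far out as Gimap6 and Gimap7.

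**Figure D2:**
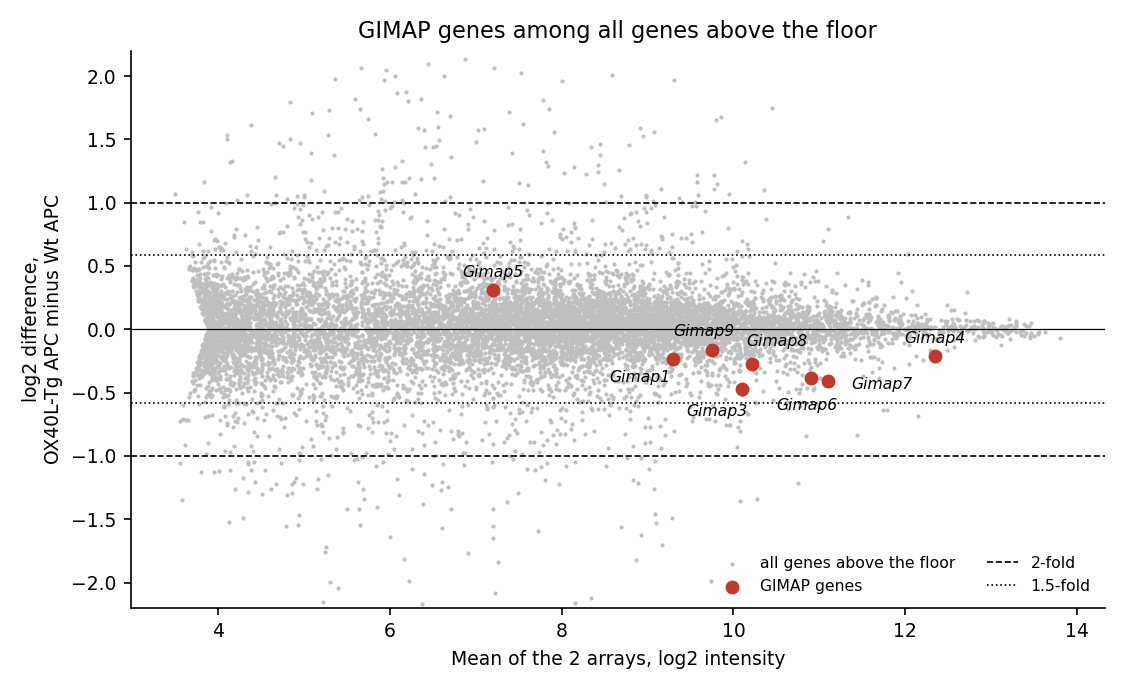
Difference between the arrays (log2, OX40L-Tg APC minus Wt APC) against the mean log2 intensity of both arrays, for the 10541 genes above the floor (grey) and the 8 GIMAP genes (red), with dashed lines at 2-fold and dotted lines at 1.5-fold. All GIMAP genes lie inside the dotted lines, 7 below 0, and 42 other genes with differences beyond 2.2 fall outside the axis.

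Genes around the cluster differed in direction. Of 20 genes flanking the cluster, 10 on each side, and 2 inside it, 10 had a value and 6 were above the other-organ level. Inside the cluster, the non-coding gene Gm46958 (chr6:48675832-48676809) overlaps the start of Gimap9. Lrrc61, on the Gimap8 side, read 43.7 units with OX40L-Tg APC and 55.7 units with Wt APC, a difference of -0.35. The other 5 of these 6 read higher, where 54.0% of all genes did, and 3 of the 5 by 0.14 or less. Repin1, a zinc finger gene, differed by 0.02 and by -0.0068 after a lowess correction, Zfp775, another zinc finger gene, by 0.14, and the transcribed pseudogene AI854703 by 0.05. On the Gimap3 side, Tmem176b read 215 units with OX40L-Tg APC and 133 units with Wt APC, a difference of 0.69. Tmem176a, its paralog, read 141 units with OX40L-Tg APC and 86.4 units with Wt APC, a difference of 0.70, and 0.56 in its other probe set. Both encode membrane proteins known from dendritic cells and some T helper cells. By the probe set with the higher mean both passed 1.5-fold, as 3.85% of all genes did upward, but the other Tmem176a set did not. Atp6v0e2, Rarres2, Aoc1 and Doxl1 read between 8.10 and 12.4 units, below the floor.

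**Figure D3:**
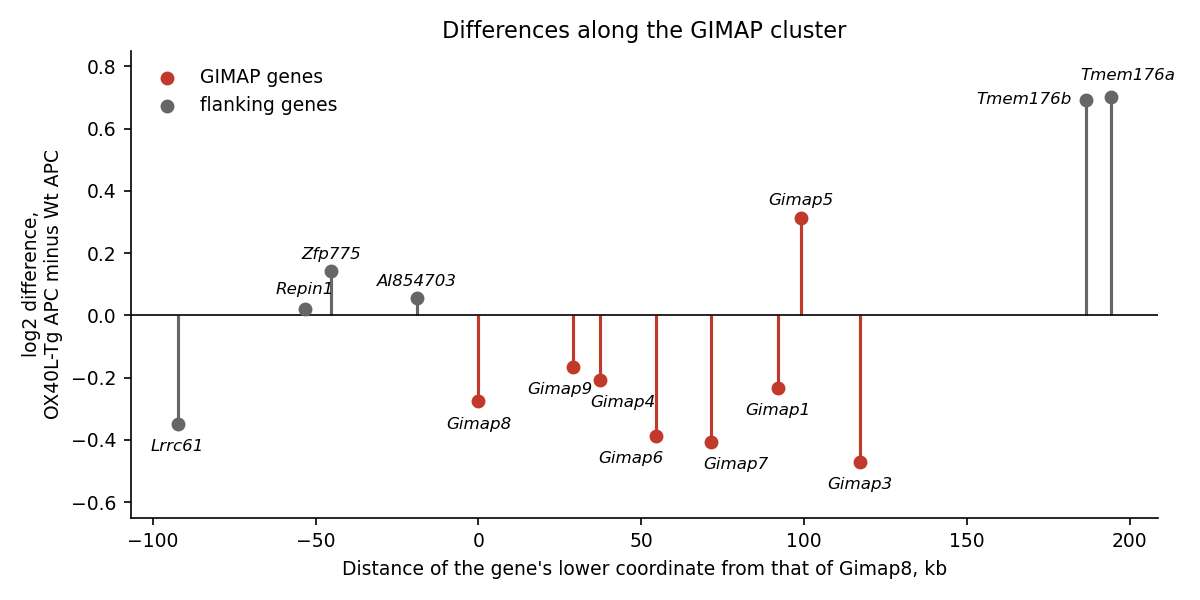
Difference between the arrays (log2, OX40L-Tg APC minus Wt APC) for the 8 GIMAP genes (red) and the 6 flanking genes above the other-organ level (grey), placed by distance from Gimap8 in kb. GIMAP genes other than Gimap5 lie below 0, while Tmem176b and Tmem176a lie at 0.69 and 0.70.

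T cell markers read lower as well. Of 17 listed, 15 had a value and were above the floor. Of these 13 read lower with OX40L-Tg APC, against 46.0% of all genes, with a median of -0.27. Their summed intensity was 25048 units with OX40L-Tg APC and 29301 units with Wt APC. Cd3e, a chain of the T cell receptor complex, read 912 units with OX40L-Tg APC and 1452 units with Wt APC, and Ubash3a, which dampens receptor signalling, 320 units with OX40L-Tg APC against 568 units with Wt APC. Trat1, an adaptor of the receptor, went the other way at 0.75. Marker lists of antigen-presenting cells read higher, while other lists of blood cells differed in direction. B cell markers were higher in 9 of 9 genes above the floor, of 15 listed and 13 with a value, against 54.0% of all genes. Those 9 had a median of 0.44 and a summed intensity of 1945 units with OX40L-Tg APC and 1297 units with Wt APC. Fcer2a, the low-affinity IgE receptor, read 520 units with OX40L-Tg APC and 259 units with Wt APC, and Cd79b, a chain of the B cell receptor complex, 313 units with OX40L-Tg APC against 166 units with Wt APC. Ebf1, an early B cell factor, read 34.6 units with OX40L-Tg APC and 17.4 units with Wt APC, the second of these below the other-organ level. That probe set had the largest Ebf1 difference, 0.99, and the 3 above the floor ran down to 0.08. The defining B cell factor Pax5 was below the floor at 12.1 units with OX40L-Tg APC and 10.8 units with Wt APC. MHC class II genes were higher in 7 of 8, against 54.0% of all genes, with a median of 0.32. That median was 0.20 over probe sets without the suffix for shared transcripts. The sums were 3833 units with OX40L-Tg APC and 2912 units with Wt APC. The largest differences were 0.69 for H2-DMb1, 0.58 for Cd74 and -0.53 for H2-Ob, the only gene of the 8 that read lower. Dendritic cell markers were higher in 7 of 8, against 54.0% of all genes, with a median of 0.54. Their sums were 3443 units with OX40L-Tg APC and 2030 units with Wt APC. That list includes Batf3 and Cd83, which activated T cells also express. Itgax, of the same list, was below the other-organ level on both arrays, and Zbtb46 was below it on the Wt APC array. Flt3 stood at -0.09, and Xcr1 and Cd209a were below the floor. No marker above the floor had a difference of exactly 0. The part of these markers in the GIMAP differences was not tested.

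Genes of naive and quiescent T cells, the state with which GIMAP expression is associated, had a median of -0.22. Of 24 listed, 16 were above the floor, and 12 of these read lower and 4 higher, against 46.0% and 54.0% of all genes. By at least 1.5-fold 5 were lower, against 3.36% of all genes, and by at least 2-fold 3, against 1.17%. Klf2, which maintains quiescence and homing, read 65.0 units with OX40L-Tg APC and 358 units with Wt APC. Foxp1, another quiescence factor, read 321 units with OX40L-Tg APC against 929 units with Wt APC, and Cd27, a costimulatory receptor, 381 units with OX40L-Tg APC against 783 units with Wt APC. These 3, at -2.46, -1.53 and -1.04, were named as the largest differences of the list, whose median lay beside the GIMAP median of -0.25. Among the 4 that read higher, Satb1 stood at 0.38, with 3 probe sets between 0.30 and 0.53, and Lef1 at 0.22. Activation genes had a median of 0.12, with 13 of 22 higher, near the 54.0% of all genes that read higher. Batf, an AP-1 factor, stood at 1.68, Egr2, a receptor-induced factor, at 1.44, and Nr4a3, an orphan nuclear receptor, at -1.34, with 3 probe sets between -1.34 and -0.24.

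Families of other GTPases differed among themselves. Guanylate-binding proteins, large GTPases induced by interferon-gamma, read lower in 5 of 6 genes above the floor, of 11 listed, with a median of -1.01. All 5 were lower by at least 1.5-fold, against 3.36% of all genes, of which 46.0% read lower at any size. Gbp10 read 372 units with OX40L-Tg APC and 1044 units with Wt APC, Gbp7 329 units with OX40L-Tg APC against 906 units with Wt APC, and Gbp3 148 units with OX40L-Tg APC against 339 units with Wt APC. Immunity-related GTPases, which attack pathogen vacuoles, were also lower in 5 of 6 genes above the floor, of 10 listed, against 46.0% of all genes. Their median was -0.72. Iigp1 stood at -1.99, Irgm2 at -1.08 and Irgm1 at -0.75. Septins, the filament-forming relatives of the GIMAP domain, had a median of -0.08, with 5 of 9 lower, against 46.0% of all genes. Septin6 stood at -0.50 and Septin11 at -0.33, while Septin8 read 170 units with OX40L-Tg APC and 51.8 units with Wt APC, a difference of 1.72 that was 0.99 in its other probe set. Mx and dynamin family genes had a median of -0.02, and Dnm2 stood at -0.21. Dnm1, at 18.8 units with OX40L-Tg APC and 23.7 units with Wt APC, and Dnm3, at 15.3 units with OX40L-Tg APC and 17.9 units with Wt APC, were below the other-organ level on both arrays. How GIMAP genes differ from any of these families was not tested, since 1 array per condition allows no test.

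**Figure D4:**
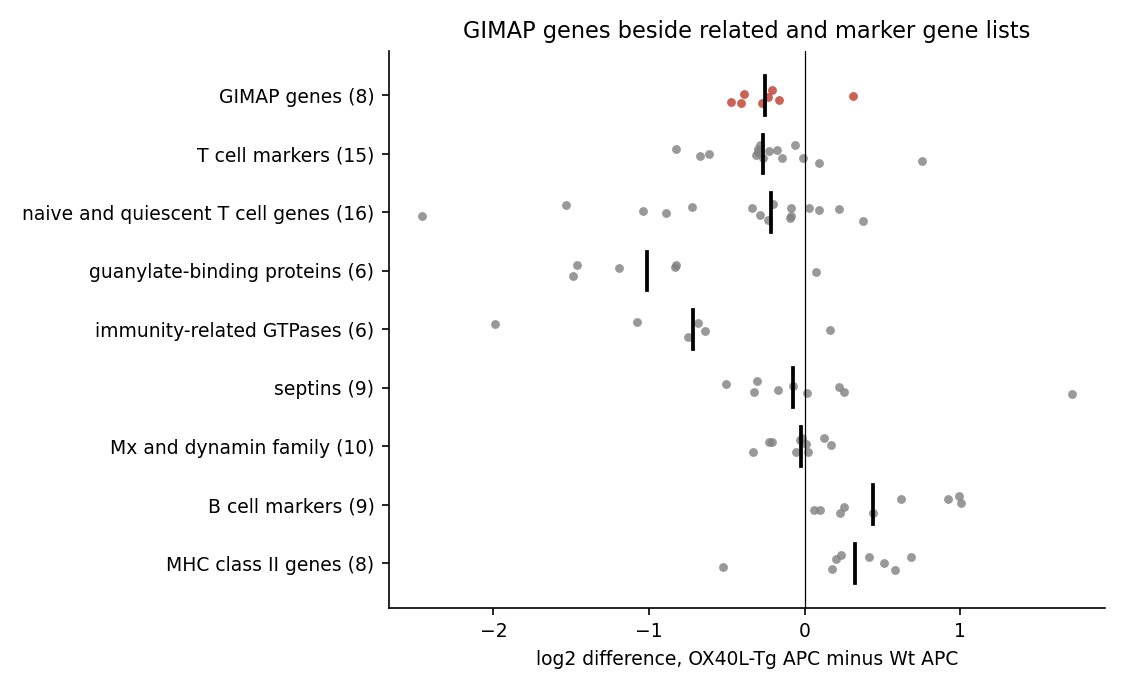
Difference between the arrays (log2, OX40L-Tg APC minus Wt APC) for each gene above the floor in 9 lists, with 1 point per gene, a black bar at the list's median and the number of genes in brackets. The GIMAP median of -0.25 lies beside that of T cell markers, -0.27, and nearer to 0 than that of guanylate-binding proteins, -1.01.

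Genes linked to GIMAP function were read from lists set beside the family. Of 14 genes of the BCL2 family above the floor, which decides cell survival at mitochondria, 11 read higher and 3 lower. Their median was 0.11, and 54.0% of all genes read higher. Bcl2l11, which encodes the death-promoting protein Bim, read 338 units with OX40L-Tg APC and 1631 units with Wt APC, a difference of -2.27. Bcl2l2 and Bik stood at 0.67 and 0.54, and the 3 probe sets of Bik ran from 0.13 to 0.54. Bcl2 and Bcl2l1, survival proteins to which Gimap3 and Gimap5 have been reported to bind, were named after their values were seen and stood at 0.01 and 0.35. Autophagy genes of the Atg8 pathway, to which the Gimap6 partner belongs, were split 6 against 6 with a median of 0.00 and none past 1.5-fold. Gabarapl2 itself read 791 units with OX40L-Tg APC and 939 units with Wt APC, a difference of -0.25, while Atg5 stood at -0.20 and Atg7 at -0.32, with probe sets of Atg7 between -0.32 and 0.14. In the list of GSK3, NFAT and mTOR signalling, studied downstream of Gimap5, the median was -0.04. There 6 of 11 read lower, against 46.0% of all genes. Nfatc1 stood at -0.90, Nfatc3 at -0.27 and Ctnnb1 at -0.22.

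Transcription factors that are known or candidate regulators of lymphocyte genes such as the GIMAP cluster diverged. Of 13 above the floor, 6 read lower and 7 higher, against 46.0% and 54.0% of all genes. In each direction 2 were past 2-fold, against 1.17% of all genes lower and 1.56% higher. Besides Klf2, Rbpj, the DNA-binding factor of the Notch pathway, read 1585 units with OX40L-Tg APC and 503 units with Wt APC, and Gata3, the Th2 factor, 1145 units with OX40L-Tg APC against 512 units with Wt APC. The median was 0.01. Notch receptors and targets had a median of 0.00, with 4 of 8 lower, against 46.0% of all genes. Gata3 and Il2ra, at 1.16 and 0.89, were the largest, and Hey1 stood at -0.28 with both values below the other-organ level.

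The 5 genes whose pair of log2 values lay nearest to the GIMAP medians, of 9.97 with OX40L-Tg APC and 10.3 with Wt APC, were Chchd3, Sptbn1, Arhgap11a, Gltp and Irf1. They lay 0.11 to 0.13 away as a Euclidean distance over 2 arrays, which says only that level and difference were similar. Their differences ran from -0.52 for Irf1 to -0.20 for Gltp.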

How the data were processed

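RNA of 1 culture per condition was hybridised to Affymetrix HT_MG-430 PM arrays, per the labels. The authors deposited probe set intensity values made with RMA, per the submitters' processing notes, and its version and the arrays normalized together are not given in the sources used here. Values were linear, and log2 was taken here. RMA equalises arrays, so a change in total RNA leaves no trace, and it compresses low values. Of 45141 probe sets, 28898 had 1 gene symbol, 551 several and 15692 were not listed. For 28689 the Entrez number was in RefSeq's GRCm38.p6 table. Symbols of the lists were updated through its synonyms. A gene took its probe set with the highest mean, and 10541 of 17097 genes were above the floor. Differences subtract the Wt APC value from the OX40L-Tg APC value.

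Members and lists were chosen with earlier results of these data known. Of the lists, up to 3 genes with the largest difference were named, with all members, neighbours with a value and the 5 nearest genes. Pax5, Adipoq, Ncr1, Bcl2, Bcl2l1, Itgax, Zbtb46, Flt3, Xcr1, Cd209a, Fcgr1, Satb1 and Lef1 were added after their values were seen. With 1 array per condition there is no test, and the number of arrays limits the precision. Alternatives concerned probe set choice, floor, lowess (span 0.3) and a pseudocount of 16. Python 3.11.15, numpy 2.4.6, pandas 2.3.3, statsmodels 0.14.6 and matplotlib 3.10.9 were used. The calculation was tested on simulated data with planted differences larger than any GIMAP difference, so differences of the GIMAP size were not tried.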

Additional observations from a re-analysis of the deposited data

How the results depend on the processing

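Under 7 alternatives the count of lower GIMAP genes was 7 of 8, none of the 8 reached 1.5-fold, and their median lay between -0.29 and -0.25. No GIMAP gene changed sign, and 55 of 56 values moved by less than 0.07, the median gap between probe sets of a gene. The exception was Gimap4, at -0.30 with probe sets without a shared-transcript suffix. Most of the 56 values could not move. The 7 genes other than Gimap4 have 1 probe set each, and all 8 passed every floor. Only the lowess correction and the pseudocount could therefore change those 7, so the other alternatives say nothing about them. After the lowess correction the share of genes above the floor that read lower was 50.5%, and the GIMAP median -0.28. Lists moved more. The guanylate-binding protein median ran from -1.19 with a floor at the 75th percentile to -0.83 without a floor, and the Notch median was 0.45 with a floor at the 75th percentile. The regulators' median turned to -0.09 with the mean of all probe sets, that of B cell markers was 0.25 without a floor, and that of MHC class II genes 0.20 with probe sets without a shared-transcript suffix and 0.23 without a floor. Repin1 turned to -0.0068 after the lowess correction. No paired analysis was possible because each condition has 1 array. For the same reason no sample could be left out, and no spread between cultures is known. Values below the other-organ level on at least 1 array limit Hey1, Dnm1, Dnm3, Klrk1, Klrd1 and Ebf1. The same holds for Itgax, Zbtb46, Cd14, Cd68, Fcgr1, Ltf, Ngp and Kdr. All GIMAP probe sets were above that level on both arrays. Cross-hybridisation between GIMAP paralogs was not tested.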

Other observations

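Genes used as markers of other lymphocytes and blood cells also had values on these arrays, and which cells they came from was not tested. Cd8b1 and Cd8a, of CD8 T cells, stood at 0.32 and 0.17. Of 6 genes of natural killer cells above the floor 5 read lower, against 46.0% of all genes, although activated T cells can express several of the 6. Klrk1 read 21.3 units with OX40L-Tg APC and 160 units with Wt APC, and Klrd1 19.7 units with OX40L-Tg APC and 78.7 units with Wt APC. Both OX40L-Tg APC values are below the other-organ level of 24.4 units, so no exact difference is given. Gzma, the protease granzyme A, went the other way, at 3048 units with OX40L-Tg APC and 104 units with Wt APC. The receptor gene Ncr1, which defines natural killer cells, was below the floor at 11.8 units with OX40L-Tg APC and 12.3 units with Wt APC. Hba-a1, an alpha globin of red cells, read 207 units with OX40L-Tg APC and 1161 units with Wt APC, with all 3 of its probe sets lower. Pecam1, an adhesion molecule of endothelium that naive T cells also carry, read 36.4 units with OX40L-Tg APC and 114 units with Wt APC. The other 2 endothelial markers above the floor read higher, Kdr at 0.41 and Egfl7 at 0.32. Kdr was below the other-organ level on both arrays, and the Egfl7 probe sets lay between -0.08 and 0.32. The remaining 6 of 9 endothelial markers were below the floor. Monocyte and macrophage markers above the floor read higher in 4 of 4, against 54.0% of all genes. Neutrophil markers above the floor read lower in 2 of 3, against 46.0%. None of these 7 passed 1.5-fold. Cd14, Fcgr1, Ltf and Ngp were below the other-organ level on both arrays, and Cd68 was below it on the Wt APC array. Of the monocyte and macrophage markers with a value, 7 of 11 were below the floor, as were 5 of 8 neutrophil markers.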
